A study of Mus musculus with 6 samples.

Results

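Lysosomes are acidic compartments in which proteases, glycosidases and lipases break down cargo from endocytosis and autophagy. The vacuolar ATPase (V-ATPase) acidifies them. Its membrane sector V0 carries protons across the membrane and its cytosolic sector V1 hydrolyses ATP. Cathepsins are the main lysosomal proteases, and TFEB is a transcription factor known to bind E-box words in promoters of lysosomal genes. In granulocytes, lysosomes and the related granules also hold the enzymes that process stored proteins.

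The genes described here are a set of 38 chosen by function: 16 V-ATPase subunits and accessory proteins, 9 cathepsins and 13 other lysosomal hydrolases, activators, membrane proteins and regulators. All 38 were found by symbol among the 23664 genes of the deposited tables, in 53 transcript entries. The values come from eosinophils of the small intestinal lamina propria of wild-type BALB/c mice, cultured for 4 hours. No cytokine was given to 3 cultures, and GM-CSF, a cytokine that acts on granulocytes, was given to the other 3 at 10 ng/ml. Whether each culture had its own animals is not stated, and the p-values therefore cover only culture-to-culture spread, which may be technical. The unit is FPKM, a fragment density per length of transcript relative to the library's mapped total, summed per gene. It takes length into account, so levels can be set side by side between genes.

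Levels of the 9 eosinophil markers were uneven. Siglec5, the files' name for Siglecf, measured 170.1 ± 11.1 FPKM untreated and 170.4 ± 8.93 with GM-CSF (SD, n = 3 each), Ccr3 289.0 and 251.3, Alox15 460.6 and 157.0, Cebpe 192.7 and 126.5, and Il5ra 25.1 and 11.2. The granule protein genes were low, Prg2 at 8.85 and 8.93 FPKM and Epx at 6.62 and 4.27, and the ribonuclease genes Ear1 and Ear2 averaged under 1 FPKM in both groups. Mapped sequence per library ran from 0.820 to 1.32 gigabases, and FPKM totals from 459681 to 468977 in 5 libraries. Untreated replicate 2 stood apart with a total of 498558. A gene's mean coverage per base is its FPKM times those gigabases. Among the tested lysosomal and pump genes, leaving Lipa aside, the lowest coverage in any library was 2.12 per base for Ctss and 12.1 for Mcoln1, and the rest were higher. Among the 10136 genes that averaged 1 FPKM or more, 2208 passed an adjusted p of 0.05 (limma on log2(FPKM + 1), Benjamini-Hochberg over all genes), 771 higher and 1437 lower with GM-CSF.

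Promoter sequence is shown first, since words bound by TFEB are known from many promoters of lysosomal genes. RefSeq start windows (GRCm38.p6, 250 bases before to 50 after the start) were matched by symbol for 29 of the 38 genes. Windows of Atp6v0a2, Atp6v1b2, Atp6v1c1, Atp6v1g1, Atp6v1h, Ctsb, Ctse, Ctsh and Npc1 were not used here. The word searched was TCACGTG on either strand, read as CACGTGA on the other, which contains the E-box CACGTG. Below are the 110 bases before an annotated start of 5 genes, 5′ to 3′ on the gene's strand, in lower case with the word in capitals. Where a gene had several windows, the stretch comes from the window with the most matches. Lamp1, Ctsa and Ctsd fell with GM-CSF, Mcoln1 did not pass the test, and Ctsc rose most.
Lamp1: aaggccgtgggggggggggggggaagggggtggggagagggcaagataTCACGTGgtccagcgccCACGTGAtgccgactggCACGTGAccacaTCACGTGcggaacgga
Ctsa: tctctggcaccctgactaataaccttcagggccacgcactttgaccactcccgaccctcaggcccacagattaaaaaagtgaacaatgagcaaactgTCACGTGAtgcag
Ctsd: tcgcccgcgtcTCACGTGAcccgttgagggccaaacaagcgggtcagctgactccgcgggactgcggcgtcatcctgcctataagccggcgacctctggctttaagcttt
Mcoln1: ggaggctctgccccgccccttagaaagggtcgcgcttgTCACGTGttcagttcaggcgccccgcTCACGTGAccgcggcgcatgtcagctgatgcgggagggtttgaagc
Ctsc: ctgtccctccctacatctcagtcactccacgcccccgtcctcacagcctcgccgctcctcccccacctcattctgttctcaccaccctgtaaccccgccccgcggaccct

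The stretches lie at chr8:13159051-13159160 on the plus strand for Lamp1, chr2:164833663-164833772 on the plus strand for Ctsa, chr7:142387828-142387937 on the minus strand for Ctsd, chr8:3500409-3500518 on the plus strand for Mcoln1 and chr7:88277975-88278084 on the plus strand for Ctsc. In Lamp1 the E-box began at positions -61, -45, -28 and -15 from the start, and in Mcoln1 at -71 and -45. Ctsc held no E-box in its window. The other window of Ctsa, chr2:164832622-164832921, held none either, so its word lies only in the window shown. Of the 29 genes, 9 held the word in at least 1 window, or 31.0%, against 7.67% of the tested genes with a window and 4.29% of all genes with one. They were Ctsa, Ctsd, Lamp1, Atp6v0d1, Mcoln1, Gaa, Atp6v0b, Atp6v0e and Atp6v1a. Among these 9, 4 fell with GM-CSF, 0 rose and 5 did not pass. Among the others with a window that were tested, 6 fell, 3 rose and 10 did not pass. Of all tested genes with the word, 91 fell, 45 rose and 434 did not pass. Of those with a window but without the word, 979 fell, 523 rose and 5357 did not pass. Of the 4 falls, those of Lamp1, Ctsd and Atp6v0d1 lost their calls with median-of-ratios factors. These matches describe letters in a window and show no binding.

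GM-CSF changed 18 of the 37 lysosomal and pump genes abundant enough to be tested. Ctsc, Ctsh, Laptm4a, Atp6v0a1 and Atp6v1g1 rose, and 13 fell, led by Ctse and Ctsa. The rest comprised 19 genes that did not pass and Atp6v0c, which was below the limit of 1 FPKM. Over all tested genes 21.8% passed, 7.61% higher and 14.2% lower. The median log2 fold change was -0.13 for the 37 genes and -0.05 for all genes. The groups did not overlap for 24 of the 37, 6 higher and 18 lower, against 39.1% of all tested genes.

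Most changes were modest. Ctsc alone among the genes that passed changed by at least 1 on the log2 scale, and 7 of the 13 falls were smaller than 0.25. Rescaling moved the split: 6 higher and 6 lower with median-of-ratios factors, 5 and 9 with quantile normalization, and 5 and 7 after setting all sums equal. For all genes the median-of-ratios split was 1007 higher and 1042 lower. Leaving out untreated replicate 2 gave 5 higher and 8 lower. Passing under all 17 alternatives were 9 genes: Ctsc, Ctsh and Laptm4a, which rose, and Ctse, Ctsa, Grn, Laptm5, Lamp2 and Atp6v1h, which fell.

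**Figure D1:**
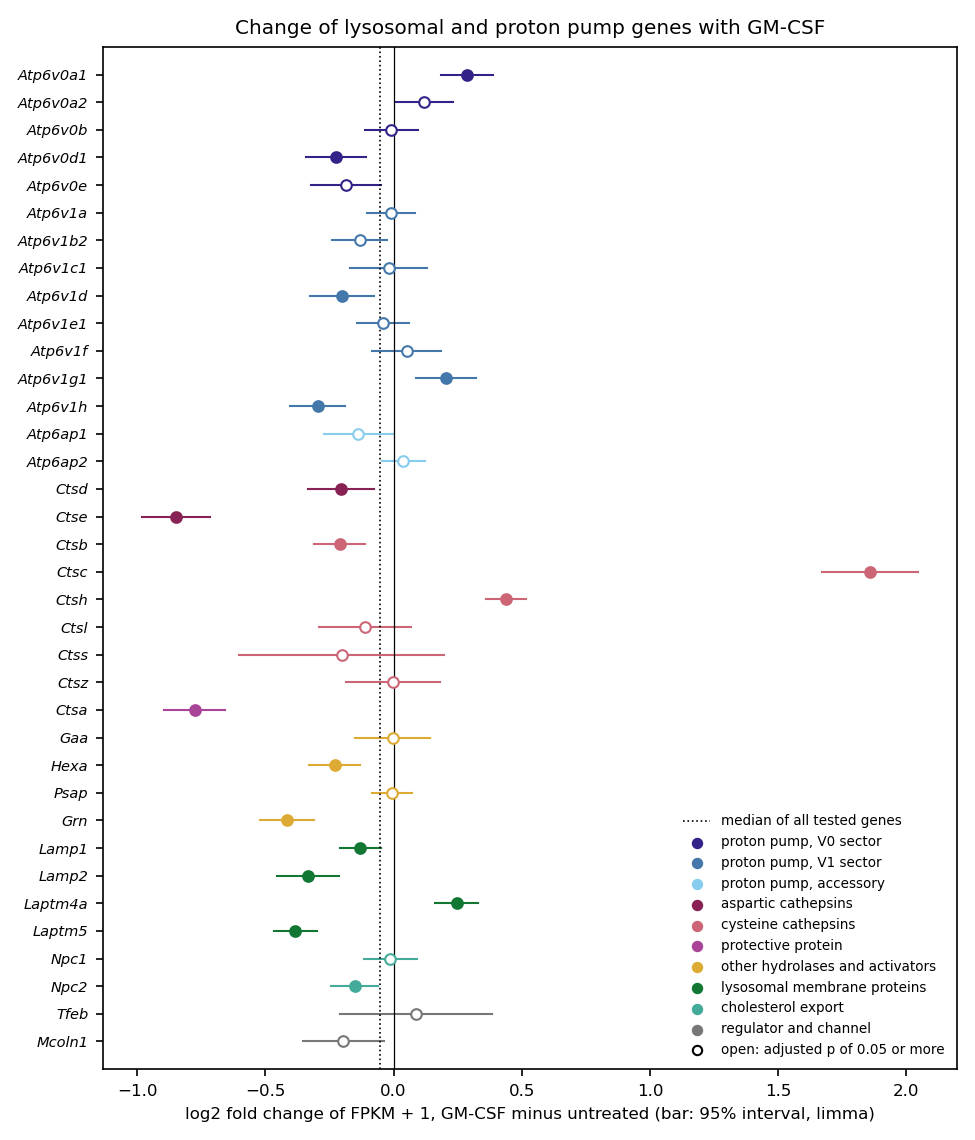
Log2 fold change on the FPKM + 1 scale for each tested gene except Lipa, GM-CSF minus untreated, with its 95% interval from limma, coloured by role. Filled points passed an adjusted p of 0.05 and open points did not. Ctsc stands far to the right at 1.86, Ctse and Ctsa farthest to the left at -0.85 and -0.77, and the dotted line is the median of all tested genes at -0.05.

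Cathepsins changed in composition while their summed level stayed in the same range. The 9 genes summed to between 1235 and 1331 FPKM in untreated and between 1252 and 1280 in GM-CSF cultures, and the groups overlapped. Of the 9, 2 rose, 4 fell and 3 did not pass. The share of Ctsc in that sum was 1.82% ± 0.252 untreated and 6.88% ± 0.331 with GM-CSF, and that of Ctsh 18.1% ± 0.574 and 24.8% ± 0.421 (SD, n = 3 each). The share of Ctsa was 9.42% ± 0.331 and 5.55% ± 0.348, and that of Ctse 5.29% ± 0.467 and 2.94% ± 0.164. Shares of 1 sum are not independent of each other.

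Ctsc encodes cathepsin C, or dipeptidyl peptidase I, which activates serine proteases stored in granules of leukocytes (chromosome 7, 88278024 to 88315861, GRCm38). Its untreated cultures, in the order of replicates 1 to 3, held 22.7, 21.2 and 26.1 FPKM, and those with GM-CSF 83.4, 87.9 and 89.6. Every GM-CSF culture was more than 50 FPKM above every untreated one. The group means, 23.3 ± 2.51 and 87.0 ± 3.20 FPKM (SD, n = 3), differed 3.73-fold (limma log2 fold change 1.86 with SE 0.08, adjusted p = 2.64e-05). By level, Ctsc went from place 32 among the 38 genes to place 20.

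Ctsh encodes cathepsin H, an aminopeptidase (chromosome 9, 90054267 to 90076095). Its values were 231.9, 232.9 and 229.3 FPKM untreated and 311.7, 316.6 and 313.3 with GM-CSF. The cultures of a group lay within 5 FPKM of each other and the groups were far apart. The fold was 1.36 (limma log2 fold change 0.44 with SE 0.03, adjusted p = 0.00023).

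Ctse, the intracellular aspartic protease cathepsin E (chromosome 1, 131638314 to 131675507), went the other way. Untreated cultures held 65.6, 65.8 and 71.9 FPKM and GM-CSF cultures 35.8, 36.6 and 39.1, without overlap. The fold was 0.548 (limma log2 fold change -0.85 with SE 0.06, adjusted p = 0.000152). Ctsd, the major aspartic protease of lysosomes and the most abundant cathepsin here, measured 446.5, 424.6 and 397.2 FPKM untreated and 377.9, 354.5 and 366.5 with GM-CSF. Its fall of 0.21 on the log2 scale passed narrowly (SE 0.05, limma adjusted p = 0.0372) and the call ended under 11 of 17 alternatives, among them the omission of any library but untreated replicate 3 (adjusted p up to 0.117).

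Ctsa encodes protective protein, a serine carboxypeptidase that also stabilises beta-galactosidase and neuraminidase in a complex (chromosome 2, 164832872 to 164841032). It measured 121.4, 119.8 and 120.8 FPKM untreated and 70.7, 65.8 and 74.1 with GM-CSF. The untreated cultures lay within 2 FPKM of each other, and the GM-CSF cultures all lay below them. The fold was 0.582 (limma log2 fold change -0.77 with SE 0.05, adjusted p = 0.000144). The partner genes, singled out after their values were seen, did not pass: Glb1 measured 8.42 and 6.56 FPKM (log2 fold change -0.31, limma adjusted p = 0.065) and Neu1 33.1 and 30.1 (-0.13, 0.211).

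Of the other cysteine cathepsins only Ctsb passed. It fell from 41.95 ± 0.864 to 36.1 ± 1.06 FPKM (SD, n = 3; log2 fold change -0.21, SE 0.04, limma adjusted p = 0.014). That call ended with median-of-ratios factors and with rescaling to the same sum. Ctsl measured 273.5 ± 19.8 and 253.0 ± 18.5 FPKM with overlapping groups (-0.11, 95% interval -0.29 to 0.07). The carboxypeptidase gene Ctsz measured 98.4 ± 10.6 and 98.0 ± 2.66 FPKM (95% interval -0.19 to 0.18). Ctss, which trims the invariant chain of MHC class II in antigen-presenting cells, was low at 2.96 ± 0.693 and 2.44 ± 0.536 FPKM. Its interval, -0.60 to 0.20, was the widest of the cathepsins.

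**Figure D2:**
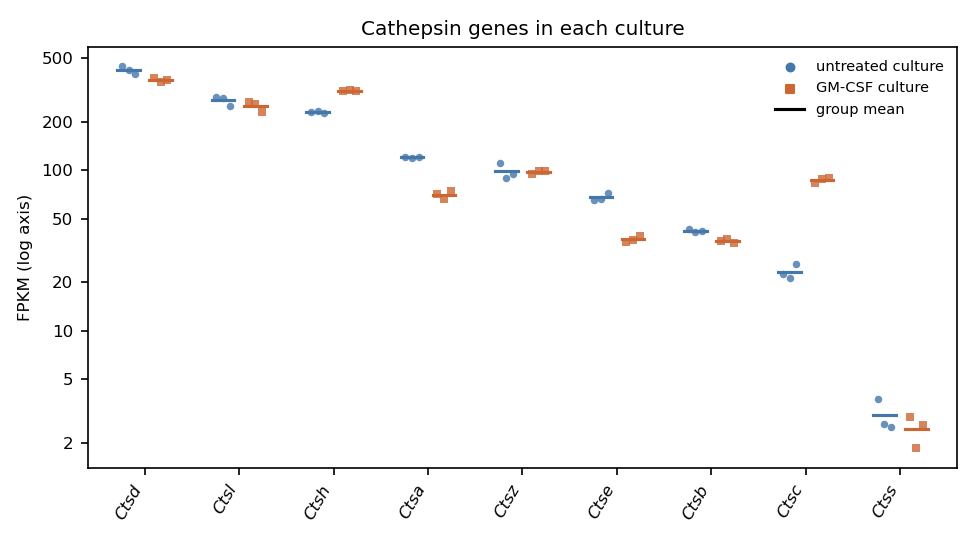
FPKM of the 9 cathepsin genes on a log axis, with 3 untreated cultures as circles, 3 GM-CSF cultures as squares and a bar at each group mean. Ctsc moves from 23.3 to 87.0, Ctse from 67.8 to 37.2, and Ctss stays near the bottom at 2.96 and 2.44.

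Proton pump genes differed more in level among themselves than between treatments. The 16 genes summed to between 2156 and 2314 FPKM untreated and between 2163 and 2173 with GM-CSF, which overlapped. The median log2 fold change of the 15 tested was -0.02: 2 rose, 3 fell and 10 did not pass. In untreated cultures the V1 gene Atp6v1f was highest at 407.5 ± 28.3 FPKM (SD, n = 3), followed by the V0 genes Atp6v0b at 357.0 ± 15.1, Atp6v0e at 339.1 ± 18.0 and Atp6v0d1 at 232.8 ± 12.4. Atp6v0b was above Atp6v0e in each untreated library, by little in replicate 1 (351.6 and 348.8 FPKM), and the difference was not tested. The catalytic V1 gene Atp6v1a was far lower at 37.3 ± 0.724 FPKM, and the V0 a subunit genes Atp6v0a1 and Atp6v0a2 lowest of the 15 at 21.6 ± 0.547 and 17.6 ± 0.514.

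Atp6v0a1 (chromosome 11, 101009422 to 101063719) rose. It measured 22.2, 21.2 and 21.3 FPKM untreated and 26.03, 27.10 and 26.48 with GM-CSF (limma log2 fold change 0.29 with SE 0.04, adjusted p = 0.0048). All 3 GM-CSF cultures were above all untreated ones. The call ended only when the highest of its 4 transcripts stood for the gene (adjusted p = 0.310). The a subunit has several isoforms that place the pump on different membranes. Atp6v0a2 measured 17.6 and 19.2 FPKM without overlap but did not pass (0.12, limma adjusted p = 0.124), except with median-of-ratios factors (adjusted p = 0.0402).

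Tcirg1, which encodes the a3 isoform known from lysosomes and osteoclasts, is outside the 38 genes and fell. It measured 34.4, 34.7 and 32.9 FPKM untreated and 22.8, 23.7 and 22.6 with GM-CSF (limma log2 fold change -0.54 with SE 0.04, adjusted p = 0.00038). Of the summed FPKM of these 3 isoform genes, Tcirg1 held 46.5%, 47.4% and 45.4% in untreated cultures and 33.27%, 34.10% and 33.03% in GM-CSF cultures. Atp6v0a1 held 30.0%, 29.0% and 29.4% and then 37.999%, 38.998% and 38.78%, so the most abundant a isoform was Tcirg1 in every untreated culture and Atp6v0a1 in every GM-CSF culture. The fourth isoform gene, Atp6v0a4, was under the limit of 1 FPKM.

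Atp6v1h, which encodes the regulatory H subunit of V1 (chromosome 1, 5082978 to 5163213), fell the most among the pump genes of the set. It measured 56.7, 57.5 and 54.9 FPKM untreated and 47.7, 45.4 and 44.1 with GM-CSF (limma log2 fold change -0.30 with SE 0.04, adjusted p = 0.00488). Atp6v0d1, a V0 subunit that joins both sectors, fell from 232.8 to 198.8 FPKM (-0.23, limma adjusted p = 0.019). Omission of untreated replicate 2 (adjusted p = 0.0705) ended that call, as did omission of replicate 2 (0.0653) or 3 (0.0577) of the GM-CSF group. Atp6v1d, of the central stalk, fell from 92.8 to 80.6 FPKM (-0.20, limma adjusted p = 0.0357), and Atp6v1g1, of a peripheral stalk, rose from 122.4 to 141.3 (0.20, limma adjusted p = 0.0275). Leaving out any of 5 libraries ended the Atp6v1d call, and without GM-CSF replicate 2 it kept an adjusted p of 0.0362. For Atp6v1g1 the call ended without untreated replicates 1 or 3 or GM-CSF replicates 1 or 2 (adjusted p between 0.0717 and 0.0913).

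Atp6v1a, Atp6v1c1, Atp6v1e1, Atp6v1f, Atp6v0b and Atp6ap2 had overlapping groups and did not pass. Their 95% intervals lay between -0.17 and 0.19 on the log2 scale. Atp6v0e (-0.18), Atp6v1b2 (-0.13) and the accessory gene Atp6ap1 (-0.14) were lower in every GM-CSF culture without passing (limma adjusted p = 0.0645, 0.0883 and 0.137). Atp6v0e passed without untreated replicate 3 (adjusted p = 0.0401) or with transcripts of at least 200 nt (0.0363), and Atp6v1b2 without GM-CSF replicate 3 (0.0412).

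Atp6v0c, the proton-carrying ring subunit, could not be read. It was listed at 4.97 FPKM in untreated replicate 1 and at 0.0055 in untreated replicates 2 and 3. The GM-CSF cultures were listed at 0.0027, 0.014 and 0.0032. The other pump genes of the set ran at 17 FPKM or more in every library. Whether reads of this gene were assigned elsewhere was not tested.

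**Figure D3:**
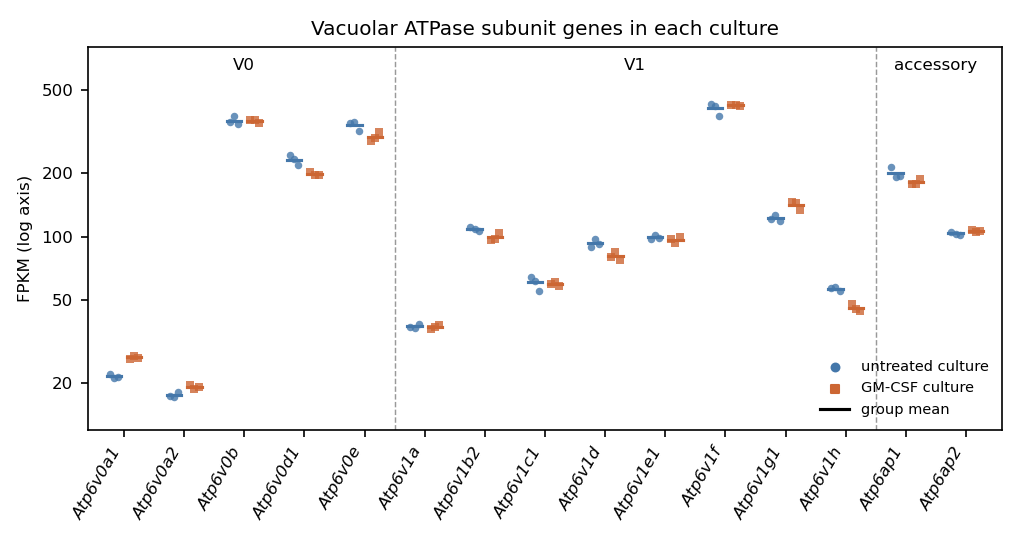
FPKM of the 15 tested V-ATPase genes on a log axis, grouped by sector, with 3 untreated cultures as circles, 3 GM-CSF cultures as squares and a bar at each group mean. Levels span from 17.6 for Atp6v0a2 to 407.5 for Atp6v1f in untreated cultures, while shifts within a gene are small, as from 21.6 to 26.5 for Atp6v0a1.

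All 4 lysosomal membrane protein genes of the set changed, and 2 of them were its most abundant genes. Laptm5, a protein of haematopoietic cells that directs surface receptors to lysosomes (chromosome 4, 130912890 to 130936148), was the highest of the 38. It measured 910.2, 894.0 and 902.1 FPKM untreated and 686.8, 681.7 and 707.3 with GM-CSF. The groups were separated by more than 180 FPKM (limma log2 fold change -0.38 with SE 0.04, adjusted p = 0.000681). Laptm4a, of the same family (chromosome 12, 8921307 to 8938742), moved in the opposite direction. It measured 520.4, 540.8 and 538.1 FPKM untreated and 629.1, 630.5 and 638.1 with GM-CSF (0.25, SE 0.04, limma adjusted p = 0.00391). Thus both the highest and the next highest gene of the set changed, 1 down and 1 up.

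Lamp2, an abundant glycoprotein of the lysosomal membrane that also serves chaperone-mediated autophagy (chromosome X, 38399647 to 38456460), measured 104.8, 97.3 and 105.8 FPKM untreated and 81.0, 77.9 and 84.5 with GM-CSF (limma log2 fold change -0.33 with SE 0.05, adjusted p = 0.00499). Its longer transcript carried between 68.9% and 76.0% of the gene's FPKM in all 6 libraries. Lamp1, its relative, fell less, from 354.0 ± 3.89 to 323.5 ± 4.65 FPKM (SD, n = 3; -0.13, SE 0.03, limma adjusted p = 0.0354). The groups of Lamp1 did not overlap, but its call ended under 11 of 17 alternatives, among them the omission of any of the 6 libraries (adjusted p between 0.0621 and 0.124).

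Among hydrolases and their partners, Grn and Hexa fell. Grn encodes progranulin, a secreted and lysosomal glycoprotein (chromosome 11, 102430507 to 102436809). It measured 350.7, 346.0 and 362.3 FPKM untreated and 255.6, 261.7 and 276.6 with GM-CSF (limma log2 fold change -0.41 with SE 0.04, adjusted p = 0.00113). The lowest untreated culture was more than 60 FPKM above the highest GM-CSF culture. Hexa, which encodes a lysosomal glycosidase chain, fell from 210.4 ± 7.70 to 179.2 ± 3.31 FPKM (-0.23, SE 0.04, limma adjusted p = 0.00919). Median-of-ratios factors ended that call (adjusted p = 0.0627).

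Psap, the precursor of the saposins that activate sphingolipid hydrolases, was at 136.7 ± 1.12 and 136.2 ± 1.33 FPKM (SD, n = 3; 95% interval of the log2 fold change -0.08 to 0.07). Gaa, the acid glucosidase gene, was at 24.8 ± 1.603 and 24.7 ± 1.06 FPKM (95% interval -0.15 to 0.14). Lipa, which encodes lysosomal acid lipase, was listed at 47.8, 44.5 and 50.4 FPKM untreated and at 0, 39.2 and 41.4 with GM-CSF. Whether the 0 is a failed estimate was not tested. In all, 25 genes were at 10 FPKM or more in 5 libraries and at 0 in 1, whichever library that was. Among them was the actin-nucleating gene Actr3, at 0 in the same library as Lipa. With that library, GM-CSF replicate 1, Lipa did not pass (limma log2 fold change -2.02 with SE 1.40, adjusted p = 0.370). Without it the value was -0.23 (SE 0.07, limma adjusted p = 0.0766).

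Npc1 and Npc2 act in turn to export cholesterol from lysosomes. Npc1 measured 37.4 ± 1.34 and 37.0 ± 0.648 FPKM (SD, n = 3; 95% interval of the log2 fold change -0.12 to 0.09). Npc2 fell slightly, from 48.3 ± 0.828 to 43.4 ± 1.02 FPKM (-0.15, SE 0.04, limma adjusted p = 0.0347). The call ended without any of the 6 libraries (adjusted p between 0.0702 and 0.105).

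The regulators did not pass. Tfeb measured 15.1, 18.3 and 19.7 FPKM untreated and 17.4, 21.9 and 17.3 with GM-CSF, and the groups overlapped (log2 fold change 0.09, 95% interval -0.21 to 0.38, limma adjusted p = 0.675). The calcium channel gene Mcoln1 was lower in every GM-CSF culture, at 15.7, 16.0 and 14.7 FPKM against 18.8, 16.5 and 18.3 (-0.20, limma adjusted p = 0.0831).

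**Figure D4:**
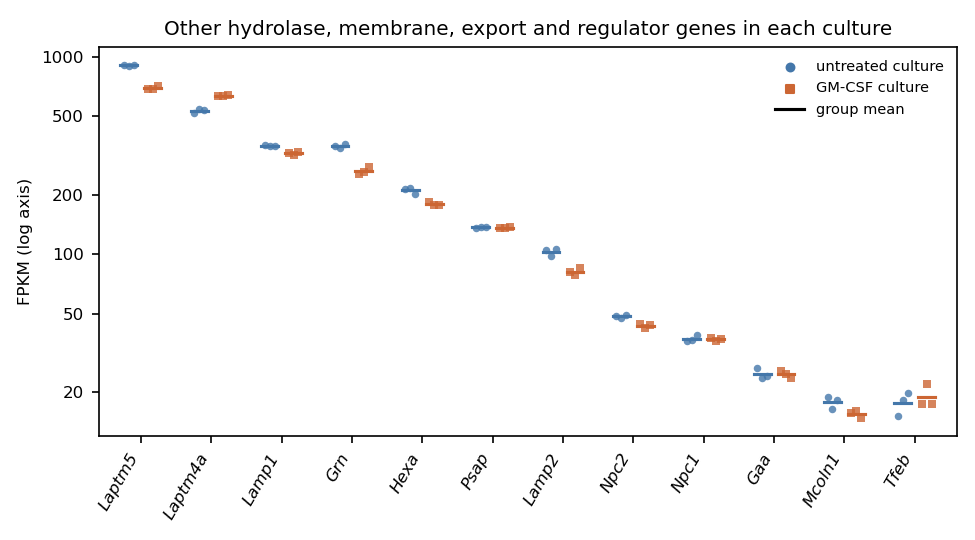
FPKM of the hydrolase, membrane, cholesterol export and regulator genes except Lipa on a log axis, with 3 untreated cultures as circles, 3 GM-CSF cultures as squares and a bar at each group mean. Laptm5 drops from 902.1 to 691.9 and Laptm4a climbs from 533.1 to 632.5, while Psap stays at 136.7 and 136.2.

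Other lysosomal genes were read from 8 lists of genes outside the set, named in turn here. For reading their counts, 7.61% of all tested genes rose and 14.2% fell. Of 35 tested lysosomal hydrolases, 2 rose and 9 fell (median log2 fold change -0.13). Gm2a, an activator protein of ganglioside breakdown, fell from 129.6 ± 9.52 to 75.9 ± 2.98 FPKM (-0.76, SE 0.06, limma adjusted p = 0.000378). Hgsnat, of heparan sulfate breakdown, fell from 13.3 to 7.63 FPKM (-0.73).

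Of 2 further V-ATPase subunit genes averaging 1 FPKM or more over all libraries, Tcirg1 fell. Atp6v0d2 was at 0.577 FPKM untreated and 1.63 with GM-CSF, at a coverage as low as 0.335 per base. It met the limit only through its GM-CSF cultures, so its call (0.74, SE 0.13, limma adjusted p = 0.00784) is not read as a result. Of 8 assembly factor genes, Dmxl2 (0.36) and Ccdc115 (0.32) rose and Rogdi fell (-0.52). Of 2 further proteases above 1 FPKM, Lgmn, which encodes the asparaginyl endopeptidase legumain, fell from 24.0 to 14.6 FPKM (-0.68, limma adjusted p = 0.000892), and Ctso did not pass. Of 3 cathepsin inhibitor genes, Cst7, which encodes cystatin F, rose from 5.66 ± 0.604 to 9.16 ± 1.92 FPKM (0.60, limma adjusted p = 0.0308), a call that ended without untreated replicate 2 or 3 or GM-CSF replicate 1 or 2 (adjusted p between 0.0626 and 0.093). Cystatin F is known to inhibit cathepsin C.

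Of 26 further lysosomal membrane genes, 1 rose and 3 fell (median -0.12). Cln3 rose from 147.7 to 194.9 FPKM (0.40, limma adjusted p = 0.00476), and Tmem192 (-0.46) and Slc38a9 (-0.33) were among the falls. The Slc38a9 call ended without any library but GM-CSF replicate 2 (adjusted p up to 0.128). Of 10 genes for sorting of enzymes to lysosomes, 4 fell and 0 rose (median -0.15), among them the sorting receptor gene Sort1 (-0.59), Nagpa (-0.32) and Gga2 (-0.31). Omitting untreated replicate 2 ended the calls of Nagpa (adjusted p = 0.089) and Gga2 (0.0634), as did 2 other libraries for each. Of 22 genes for TFEB relatives and lysosomal mTORC1 sensing, Fnip2 rose (0.28) and Lamtor4 (-0.34) and Rragc (-0.19) fell. None of these calls was firm: that of Rragc ended without any of the 6 libraries (adjusted p between 0.061 and 0.132), that of Lamtor4 without any but untreated replicate 1 (up to 0.122), and that of Fnip2 without replicate 1 or 3 of either group (up to 0.0749). Over all lists outside the set, including those for autophagy and fusion, 11 of 152 tested genes rose and 30 fell, or 11 and 24 with median-of-ratios factors. Of all 10136 tested genes, 771 rose (7.61%) and 1437 fell (14.2%), or 1007 and 1042 with median-of-ratios factors.

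**Figure D5:**
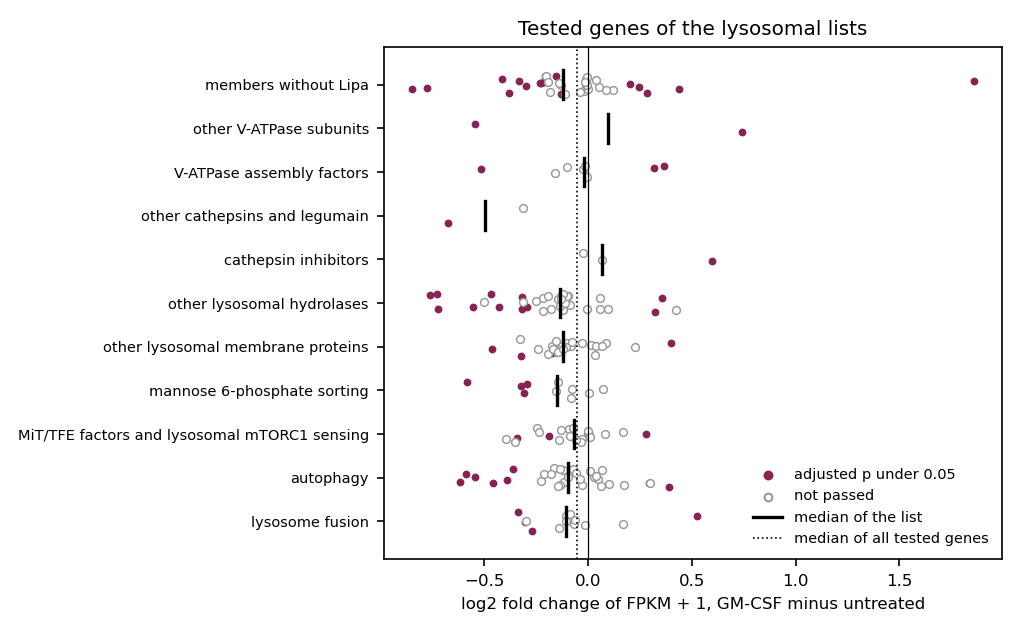
Log2 fold change on the FPKM + 1 scale, GM-CSF minus untreated, for tested genes of the set without Lipa and of each lysosomal list, with filled points past an adjusted p of 0.05 and a bar at each median. Most medians lie left of 0, as for the other hydrolases at -0.13, while that of all tested genes is at -0.05.

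Markers of other cells moved with treatment beside these values. In bulk RNA, fewer cells of a type and less RNA per cell cannot be told apart. The B and plasma cell list had 5 tested genes and each fell, among them Cd79b, Igj and Mzb1 (-0.88, -0.88 and -0.81). Mzb1 averaged 2.01 FPKM untreated and 0.725 with GM-CSF, and met the limit of 1 FPKM only through its untreated cultures. Ms4a1 (0.907 and 0.657 FPKM) and Pax5 (0.468 and 0.404) were under the limit, with overlapping groups. The 7 in the list summed to 31.0 to 38.5 FPKM untreated and 16.7 to 17.7 with GM-CSF. All 4 tested T cell markers fell, among them Lck, Cd3e and Cd3g (-0.96, -0.75 and -0.65), with sums of 27.6 to 28.7 and 14.9 to 17.6 FPKM. Of 8 tested epithelial markers, 4 fell, among them Krt19, Krt8 and Lgals4 (-0.81, -0.68 and -0.53), with sums of 85.9 to 91.8 and 56.9 to 70.1 FPKM. The other 4 did not pass. Of these, Krt20 (-0.53), Fabp2 (-0.41) and Cdh1 (-0.36) were lower in mean and Epcam (0.27) was higher.

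Macrophages are rich in cathepsins. From the macrophage and dendritic cell list, 6 genes were tested and 3 were lower: Csf1r (-0.86), Apoe (-0.63) and Lyz2 (-0.42). The other 3, Emr1 (0.21), Xcr1 (0.20) and Cd68 (0.09), were higher in mean without passing. The list summed to 481.5 to 540.1 FPKM untreated and 537.3 to 603.4 with GM-CSF, most of it from Emr1, a gene that eosinophils also express. The defining genes C1qa, C1qb and C1qc averaged under 0.4 FPKM in both groups. Mertk was listed at 0.011, 0 and 0 FPKM untreated and at 0 in all GM-CSF cultures. Of 4 tested neutrophil markers, Retnlg (-0.43) and S100a8 (-0.77) fell. S100a9 (-0.39) and Ngp (-0.47) were lower in mean without passing. The list summed to 1346 to 1461 and 1042 to 1051 FPKM, most of it from Retnlg, which averaged 1344 untreated and 998.6 with GM-CSF. Camp and Elane were at 0 in every library. Of 4 tested mast cell markers, Kit (-0.75) and Gata2 (-0.33) fell, with sums of 14.5 to 26.1 and 11.7 to 15.4 FPKM. Of 7 tested eosinophil markers, 4 fell, led by Alox15, Il5ra and Cebpe (-1.54, -1.10 and -0.60), with sums of 1081 to 1262 and 679.8 to 774.9 FPKM. The calls of Igj, Mzb1, Lyz2 and Gata2 each ended without any of 4 libraries (adjusted p up to 0.120, 0.0866, 0.121 and 0.0977), and that of Krt8 without any of the 3 untreated ones (up to 0.0897). The part of these shifts in the changes of lysosomal and pump genes was not tested.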

How the data were processed

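Polyadenylated RNA of 6 cultures was sequenced after Trizol extraction and TruSeq Stranded mRNA library preparation, per the labels' protocols. Tools listed in the submitters' processing notes are Cufflinks, TopHat, TopHat2 and bcl2fastq 1.8.4, with mm10 as the mouse build. Their order and settings are not given. The authors deposited FPKM for 30374 RefSeq transcripts per library, and no read counts were used. The deposited coverage signal served only to learn depth: coverage divided by FPKM was constant within a library and gives the mapped gigabases. No source used here states how multiply matching reads were shared out.

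FPKM were summed per symbol and locus. Genes averaging 1 FPKM or more were fitted on log2(FPKM + 1) with limma 3.58.1 in R 4.3.3 (empirical Bayes with trend, two-sided, Benjamini-Hochberg over all 10136 genes, threshold 0.05). The fit was tested on simulated data. The log2 scale with a pseudocount of 1 understates changes of low genes. The 17 alternatives covered pseudocount, filter, scaling, transcript choice, trend, a replicate block and the omission of each library. Gene positions and promoter windows are RefSeq's on GRCm38.p6, the assembly of mm10. The genes and lists were chosen with earlier results of these data known. By rule, genes named outside the set are, per list, up to 3 called genes, taken by size of change, or else the 2 of highest mean level. One gene that this rule names is not reported here. Named beyond the rule, after their values were seen, are Siglec5, Ccr3, Epx, Prg2, Ear1, Ear2, Glb1, Neu1, Ctso, Emr1, C1qa, C1qb, C1qc, Mertk, Camp, Elane, Atp6v0a4 and Actr3. Also named so are Cd68, Xcr1, Krt20, Fabp2, Cdh1, Epcam, Ms4a1, Pax5, S100a9 and Ngp. Symbols not found directly were matched through RefSeq synonyms, and Rnaset2a and Ly6g were unmatched.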

Additional observations from a re-analysis of the deposited data

How the results depend on the processing

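Of the 18 genes called, none changed direction under any of the 17 alternatives. Calls that fell were fewer under other scalings: 6 with median-of-ratios factors and 7 after rescaling to the same sum, against 13. Median-of-ratios factors ended the calls of Atp6v0d1, Atp6v1d, Ctsb, Ctsd, Hexa, Lamp1 and Npc2, the 7 falls under 0.25. Over all genes, 912 were lower after rescaling to the same sum, against 1437. Omitting 1 library left between 8 and 11 lower and 4 to 5 higher genes of the set, and between 889 and 1128 lower genes of the whole table. Both counts of lower genes were smallest without untreated replicate 2. With fewer libraries the test has fewer residual degrees of freedom. With the replicate number as a block, 16 genes of the set passed, 5 higher and 11 lower, losing Lamp1 (adjusted p = 0.0612) and Npc2 (0.0544). Deviations of same-numbered cultures correlated at -0.031, 0.050 and -0.021 across genes, and those of differently numbered cultures at between -0.062 and 0.084. Whether equal numbers share animals or a batch is not stated. So few cultures cannot settle it, since these values reflect only shifts shared across many genes. Without a filter on low values Atp6v1d and Ctsd were lost. Outside the set, the calls of Slc38a9, Lamtor4, Rragc, Atg4c, Lyz2, Igj, Mzb1 and Gata2 ended under at least 7 alternatives, and those of Cst7, Fnip2, Nagpa, Krt8 and Gga2 under 4 or 5. The calls of Sort1, Vps39, Lck and Tmem192 ended only where the highest transcript stood for the gene. Precision was lowest for Lipa, Ctss (SE 0.17, coverage as low as 2.12 per base) and Tfeb (SE 0.12), and the other 34 tested genes had an SE of at most 0.1. The part of depth in this was not tested.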

Other observations

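Autophagy delivers cargo to lysosomes. Its list had 31 tested genes with a median log2 fold change of -0.10: 2 rose, 6 fell and 23 did not pass, while 21.8% of all tested genes passed. Wipi1, which acts at the forming autophagosome, fell from 6.75 ± 0.917 to 4.03 ± 0.143 FPKM (SD, n = 3; -0.62, SE 0.10, limma adjusted p = 0.00561). The lipid transfer gene Atg2a fell from 22.3 ± 1.18 to 15.0 ± 0.629 FPKM (-0.54, SE 0.06, limma adjusted p = 0.00121), and the protease gene Atg4c from 1.84 to 0.891 (-0.59, limma adjusted p = 0.0453), a call that ended under 11 of 16 alternatives. Atg4c met the limit of 1 FPKM only through its untreated cultures. Of 13 genes for fusion with lysosomes, Stx7, a syntaxin of late endosomes, rose from 25.997 ± 2.93 to 37.6 ± 0.637 FPKM (0.52, SE 0.08, limma adjusted p = 0.00547), while 3 fell, including Vps39 (-0.34) and Vps16 (-0.31), both of tethering complexes.

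Transcript shares within a gene were steady for some genes and not for others. The 2 Lipa transcripts, of nearly equal length, each held between 0.1% and 99.9% of the gene's FPKM depending on the library, so only gene sums were read. For Tfeb, the main transcript held between 48.2% and 78.5%. For Psap, with 6 transcripts, the main one held between 80.4% and 84.5% in every library.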
